A study of Homo sapiens with 6 samples.

Results

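The suppressors of cytokine signalling (SOCS1 to SOCS7) and the closely related CISH form a family of 8 genes, and all 8 had a row among the 61487 gene IDs of the deposited count table. They were taken by symbol, whatever the level or change of each, and the family was chosen with earlier results of these data known. The libraries came from H2170 cells, a line established from a human squamous carcinoma of the lung, grown in DMEM with serum. The cells overexpressed wild-type ACK1 fused to GFP (ACK1 WT, 2 libraries) or the form called IDRmut fused to GFP (ACK1 IDRmut, 2 libraries), or expressed GFP with no added ACK1 (Control, 2 libraries). Every group therefore carried GFP, and the vector, its promoter, the altered residues and whether the cells were clones or pools were not given in the sources used here. ACK1, the product of TNK2, is a cytoplasmic tyrosine kinase, and the series was made to ask how its condensates bear on STAT5 activation, of which CISH and SOCS2 are textbook readouts.

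Cytokine receptors signal through JAK kinases, which phosphorylate STAT transcription factors, and the STATs in turn switch on several SOCS genes, so that the pathway restrains itself. Each SOCS protein has an SH2 domain, which binds phosphotyrosine on a receptor, kinase or adaptor, and a SOCS box, which recruits elongins B and C and cullin 5 to form a ubiquitin ligase. SOCS1 and SOCS3 also hold a kinase inhibitory region that blocks JAKs directly. CISH and SOCS2 are known for binding the receptors of growth hormone, erythropoietin and related cytokines, SOCS4 and SOCS5 for acting on the EGF receptor, and SOCS6 and SOCS7 for acting on insulin receptor substrates and KIT.

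The promoter of CISH, for which control by STAT5 has been described, is shown together with that of SOCS1, an interferon-inducible member. The sequences are the 250 bases before the start in RefSeq (GRCh38.p14), 5′ to 3′ on the strand of the gene, at chr3:50611775-50612024 (minus strand) for CISH and chr16:11256205-11256454 (minus strand) for SOCS1. Capitals mark matches to the STAT motif GAS, TTCNNNGAA, in CISH and to the core of the interferon-stimulated element ISRE, a pair of GAAA separated by any 2 bases, in SOCS1.
CISH: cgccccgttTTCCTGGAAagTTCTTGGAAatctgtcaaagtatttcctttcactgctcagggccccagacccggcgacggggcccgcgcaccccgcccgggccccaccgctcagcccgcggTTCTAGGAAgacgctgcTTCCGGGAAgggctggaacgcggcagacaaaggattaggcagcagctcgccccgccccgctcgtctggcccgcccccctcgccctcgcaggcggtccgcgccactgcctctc
SOCS1: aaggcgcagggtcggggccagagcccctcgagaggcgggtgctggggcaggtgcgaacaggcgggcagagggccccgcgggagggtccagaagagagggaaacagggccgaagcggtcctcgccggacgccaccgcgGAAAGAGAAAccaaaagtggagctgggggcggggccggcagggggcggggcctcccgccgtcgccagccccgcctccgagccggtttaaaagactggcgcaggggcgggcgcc

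RefSeq promoters were matched for 5 of the 8 members: CISH, SOCS1, SOCS3, SOCS4 and SOCS6. The CISH window held 4 GAS matches, TTCCTGGAA, TTCTTGGAA, TTCTAGGAA and TTCCGGGAA, whose first bases lay at -241, -230, -129 and -112, counted back from the start. Of 35116 promoter windows of the same length, 6.57% held at least 1 GAS match, and 5 windows (0.0142%) held at least 4. The SOCS1 window held 1 ISRE core, GAAAGAGAAA, from -113, and 3.02% of all windows held at least 1 on either strand. Neither motif, nor a wider GAS with 4 free bases in place of 3 (5.38% of windows), was found in the windows of SOCS3 (2 starts), SOCS4 or SOCS6. The SOCS3 windows lay at chr17:78360926-78361175 and chr17:78359668-78359917. Neither covered the bases just before the annotated start of the SOCS3 gene at 78360077 (minus strand), which were not searched. GAS and the wider form read the same on both strands, no matches overlapped, and a match is a stretch of letters, not a measured binding site.

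**Figure D1:**
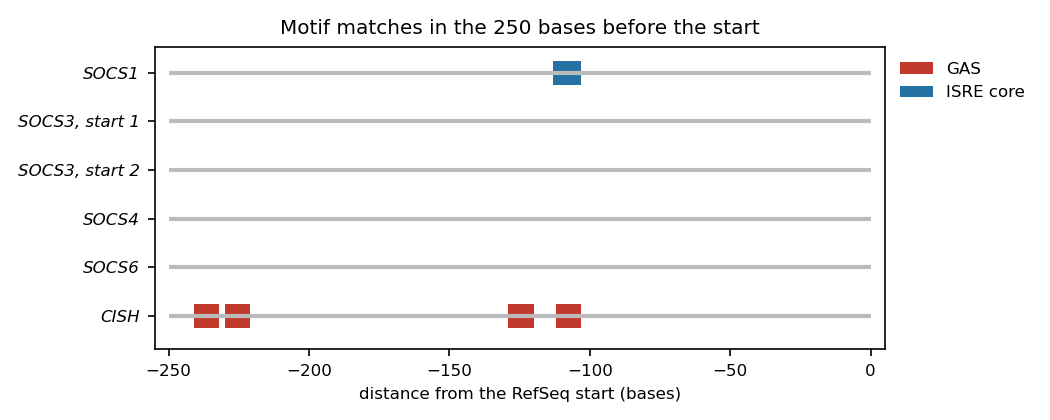
Positions of motif matches in the 250 bases before each RefSeq start (x axis, bases from the start; 1 line per promoter window). GAS matches are red and ISRE cores blue; CISH held 4 GAS matches in 2 pairs and SOCS1 held 1 ISRE core.

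Depth ranged from 19128111 to 33540998 counts per library, the deepest being the second ACK1 WT library, and replicates ranked genes alike (Spearman across genes 0.9956 to 0.9968). The spread between replicates exceeded that of counting, with a mean chi-square per gene of 1.55 in ACK1 WT, 3.73 in ACK1 IDRmut and 1.7 in Control, and since no label says whether the replicates were separate cultures, p-values measure only how these samples vary, which may be technical. The TNK2 transcript stood at 3564 ± 70 CPM in ACK1 WT, 1609 ± 217 CPM in ACK1 IDRmut and 42.1 ± 1.4 CPM in Control (SD, n = 2); CPM are counts per 1000000 counts of the scaled library. Reads of the introduced transcript and of the cell's own cannot be told apart in this row. The ACK1 transcript was thus higher in ACK1 WT than in ACK1 IDRmut, and every difference between these arms below was measured together with that one; the part of the transcript level was not tested. Among 12 squamous markers, 9 were measurable and their summed level was 1519 to 1562 CPM in ACK1 WT, 2088 to 2239.9 CPM in ACK1 IDRmut and 2954 to 2977 CPM in Control, with KRT14 the highest and DSC3 at 0 in ACK1 WT and Control. None of 10 leukocyte markers passed the filter on low counts, and their sum was at most 1.52 CPM in any library, with CD3E, CD3D and MS4A1 among those at 0 throughout. The 8 endothelial markers summed to 51.2 to 53.2 CPM in ACK1 WT, 99.5 to 103 CPM in ACK1 IDRmut and 219.5 to 226 CPM in Control, mostly CDH5, with ERG at 0 in ACK1 WT and Control. The 9 fibroblast markers summed to 705 to 716, 925 to 985 and 883 to 907 CPM in the same order of groups, mostly COL1A2, and 9 alveolar and airway markers to at most 0.907 CPM. The squamous and endothelial sums differed between the groups, but single markers did not all follow them. In ACK1 IDRmut over Control 4 of the 9 measurable squamous markers rose and 3 fell (median 0.11), KRT6A averaging 96.9 CPM in ACK1 IDRmut and 28.6 CPM in Control. In ACK1 WT over Control 2 rose and 6 fell (median -0.53). Between the ACK1 arms all 9 were lower in ACK1 WT than in ACK1 IDRmut (median -0.52). Of all genes tested, 31.6%, 35.0% and 26.5% had an adjusted p under 0.05 in these 3 comparisons, in that order. TEK, an endothelial marker, had 5.1 CPM in ACK1 WT, 2.65 CPM in ACK1 IDRmut and 1.07 CPM in Control, against the direction of CDH5. The part of these markers in the results below was not tested.

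The family fell into abundant and scarce members. Per kilobase of exon (union of GENCODE 29 exons), SOCS5 had the highest mean level in all 3 groups, at 11.3 CPM per kb in ACK1 WT, 16.5 in ACK1 IDRmut and 9.61 in Control. SOCS7, SOCS3, SOCS4 and SOCS6 followed between 7.5 and 9.28 CPM per kb. In Control the order by mean was SOCS5, SOCS7, SOCS6, SOCS3 and SOCS4, and each overlapped the next, although both SOCS5 libraries (9.75 and 9.46 CPM per kb) lay above those of SOCS6, SOCS3 and SOCS4, and both SOCS7 libraries (9.48 and 9.08) above those of SOCS3 and SOCS4. In both ACK1 arms SOCS5 stood above SOCS7 without overlap. SOCS2 reached 1.06 CPM per kb in ACK1 WT, 0.588 in ACK1 IDRmut and 0.2 in Control, above SOCS1 in both ACK1 arms and overlapping it in Control. CISH was lowest in every group, between 0.0719 and 0.152 CPM per kb. The summed level of the 8 members was 291 and 297 CPM in ACK1 WT, 333 and 332 CPM in ACK1 IDRmut and 293 and 281 CPM in Control. SOCS5 made up 37.6% to 37.9% of that sum in ACK1 IDRmut, 29.1% in both ACK1 WT libraries and 25.3% to 25.6% in Control.

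**Figure D2:**
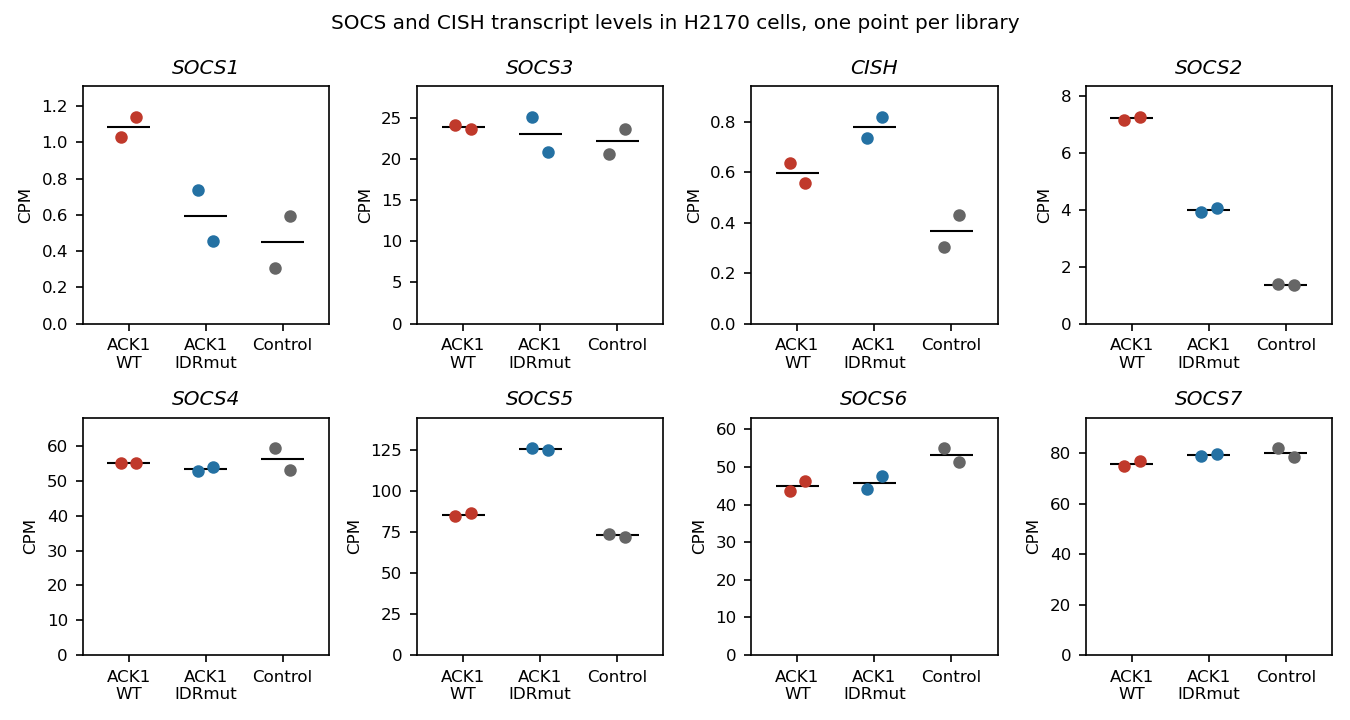
Level of each family member in CPM (y axis, from 0) in the 2 libraries of each group (points) with the group mean (line). SOCS2 is highest in ACK1 WT at 7.15 and 7.25 CPM, and SOCS5 is highest in ACK1 IDRmut at 126 and 125 CPM.

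In ACK1 WT against Control, SOCS2, SOCS1 and SOCS5 rose and SOCS6 fell, so that 4 of the 8 members were called, where 35.0% of all 16591 genes tested were called (17.4% higher and 17.6% lower). In ACK1 IDRmut against Control, SOCS2 and SOCS5 rose and SOCS6 fell, 3 members against 31.6% of all genes (15.6% higher and 15.9% lower). Between ACK1 WT and ACK1 IDRmut, SOCS2 was higher and SOCS5 lower, 2 members against 26.5% of all genes (14.2% higher and 12.3% lower). With 8 members, these counts lie near the shares of all genes. The median log2 fold change of the 8 members was 0.17, 0.23 and 0.01 in the 3 comparisons in that order, and the median of all genes was 0 in each. A gene was called at a Benjamini-Hochberg adjusted p under 0.05 in edgeR's quasi-likelihood test over all genes. All 8 members passed the filter on low counts, but CISH passed it through its ACK1 libraries alone (4 of them, and none of Control, reached 0.494 CPM), and SOCS1 through both ACK1 WT libraries and 1 library of each other group; the counts of members above are a description and support nothing further. Without Control replicate 1, 2 members were called in ACK1 WT against Control, since SOCS1 and SOCS6 were lost. In these bulk samples a change in the share of cells that express a gene and a change per cell cannot be told apart.

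**Figure D3:**
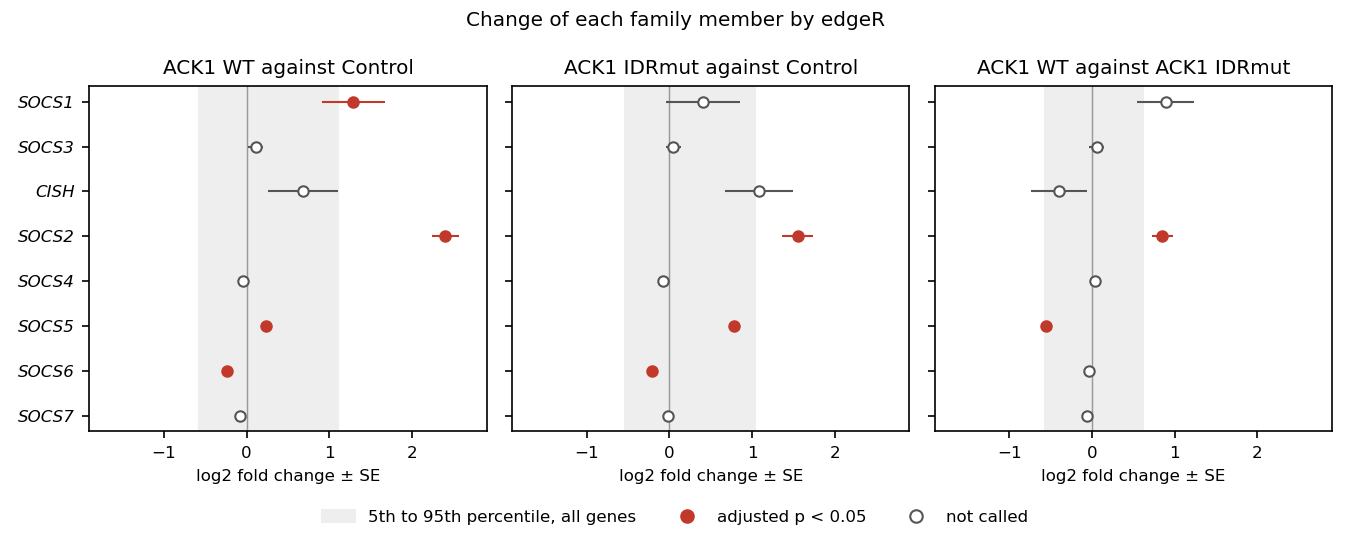
Log2 fold change of each member (x axis, points with SE) in the 3 comparisons; red points had an adjusted p under 0.05, and the grey band spans the 5th to 95th percentile of all 16591 genes. SOCS2 lies to the right of the band in all 3 panels. SOCS1 does so in ACK1 WT against Control (1.29) and, not called, in ACK1 WT against ACK1 IDRmut (0.89). CISH, not called, does so in ACK1 IDRmut against Control (1.08). SOCS3, SOCS4 and SOCS7 lie near 0.

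SOCS2 showed the largest rise of the family. It binds phosphorylated growth hormone receptor and is induced through STAT5, and it lies on chromosome 12 from 93569814 to 93583487 (GRCh38, plus strand; ENSG00000120833). Its level was 7.15 and 7.25 CPM in ACK1 WT, 3.93 and 4.05 CPM in ACK1 IDRmut, and 1.37 and 1.34 CPM in Control, from 146 and 248, 80 and 89, and 27 and 25 counts. The 3 groups did not overlap, and the replicates of each lay close together. The ratio was 5.29 for ACK1 WT over Control (log2 fold change 2.40 ± 0.16 SE, adjusted p 4e-09) and 2.93 for ACK1 IDRmut over Control (1.55 ± 0.19, adjusted p 7.1e-06). ACK1 WT stood above ACK1 IDRmut by 0.85 ± 0.13 (95% interval 0.59 to 1.12, adjusted p 7.5e-05).

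The antisense gene SOCS2-AS1 covers 4.09% of the SOCS2 exon bases, and as the strand setting of the counting is not given, reads in that stretch could not be assigned to either gene with certainty. SOCS2-AS1 itself, which reached the cut of the filter in its ACK1 WT libraries alone, had 15 and 34 counts in ACK1 WT, 8 and 4 counts in ACK1 IDRmut, and 1 count in each Control library. Summed over libraries it was 17.2 times as high in ACK1 WT as in Control (95% counting interval 4.51 to 146) and 5.43 times as high in ACK1 IDRmut as in Control (1.21 to 49.9), a difference that edgeR did not call (adjusted p 0.051). With upper-quartile scaling SOCS2-AS1 was called in ACK1 IDRmut over Control (log2 fold change 2.35, adjusted p 0.046). Between ACK1 WT and ACK1 IDRmut it differed by 1.64 ± 0.42 on the log2 scale (adjusted p 0.0084), which was lost without ACK1 WT replicate 2 (1.35, adjusted p 0.16) and without ACK1 IDRmut replicate 2 (1.17, adjusted p 0.11). Its counts were highest in ACK1 WT, the group through which it passed the filter.

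CISH, which is induced through STAT5 and carries the 4 GAS matches shown above, stayed scarce in every group. It lies on chromosome 3 from 50606490 to 50611831 (minus strand; ENSG00000114737). It had 13 and 19 counts in ACK1 WT, 15 and 18 counts in ACK1 IDRmut, and 6 and 8 counts in Control, or 0.637 and 0.556, 0.736 and 0.819, and 0.304 and 0.43 CPM. Both ACK1 arms lay above Control without overlap, yet no difference passed the test. The log2 fold changes against Control were 0.68 ± 0.42 in ACK1 WT (95% interval -0.21 to 1.56, adjusted p 0.24) and 1.08 ± 0.41 in ACK1 IDRmut (0.21 to 1.95, adjusted p 0.055, unadjusted p 0.018). The difference in ACK1 IDRmut passed with upper-quartile scaling alone among the alternatives tried (1.11, adjusted p 0.049). Between ACK1 WT and ACK1 IDRmut the difference was -0.40 ± 0.34 (-1.12 to 0.31, adjusted p 0.42). The counts set the limit here: the summed count was 32 in ACK1 WT (exact Poisson 95% interval 21.9 to 45.2), 33 in ACK1 IDRmut (22.7 to 46.3) and 14 in Control (7.7 to 23.5), intervals that cover counting error only. MAPKAPK3, on the other strand, overlaps 4.26% of the CISH exon bases.

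SOCS1, the direct JAK inhibitor that interferon induces, was scarce and rose in ACK1 WT. Located on chromosome 16 from 11254405 to 11256200 (minus strand; ENSG00000185338), it had 21 and 39 counts in ACK1 WT, 15 and 10 counts in ACK1 IDRmut, and 6 and 11 counts in Control. These were 1.03 and 1.14 CPM, 0.736 and 0.455 CPM, and 0.304 and 0.592 CPM. ACK1 WT lay above both other groups without overlap, and ACK1 IDRmut overlapped Control. The rise in ACK1 WT over Control was 1.29 ± 0.38 (adjusted p 0.013). It did not pass without Control replicate 1 (0.88, adjusted p 0.19), without ACK1 WT replicate 2 (1.19, adjusted p 0.1) or with DESeq2 (1.28, adjusted p 0.19). ACK1 IDRmut differed from Control by 0.41 ± 0.45 (95% interval -0.55 to 1.36, adjusted p 0.54), and ACK1 WT from ACK1 IDRmut by 0.89 ± 0.34 (0.16 to 1.61, adjusted p 0.068), which passed without ACK1 IDRmut replicate 1 (1.25, adjusted p 0.044).

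SOCS3, the other JAK-blocking member and the main brake on gp130 receptors such as that of IL-6, was expressed far above SOCS1 and was not called in any comparison. On chromosome 17 from 78356778 to 78360077 (minus strand; ENSG00000184557), it had 24.1 and 23.7 CPM in ACK1 WT, 25.1 and 20.9 CPM in ACK1 IDRmut, and 20.6 and 23.7 CPM in Control. The ACK1 WT libraries lay at or just above the higher Control library, and the ACK1 IDRmut libraries spanned nearly the range of all 6. The differences were 0.11 for ACK1 WT over Control (95% interval -0.08 to 0.30), 0.05 for ACK1 IDRmut over Control (-0.14 to 0.25) and 0.06 for ACK1 WT over ACK1 IDRmut (-0.13 to 0.24). Its divergent transcript SOCS3-DT, below the filter, had 10 and 14 counts in ACK1 WT, 5 and 4 counts in ACK1 IDRmut, and 2 counts in each Control library.

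SOCS5, which promotes degradation of the EGF receptor, was highest in ACK1 IDRmut, as the scarce CISH was in its mean level. It lies on chromosome 2 from 46698952 to 46780245 (plus strand; ENSG00000171150) and had 84.8 and 86.5 CPM in ACK1 WT, 126 and 125 CPM in ACK1 IDRmut, and 74.1 and 71.9 CPM in Control, from at least 1336 counts in every library. No group overlapped another. ACK1 IDRmut exceeded Control by a ratio of 1.72 (log2 fold change 0.78 ± 0.04, adjusted p 7e-10), and ACK1 WT exceeded Control by a ratio of 1.17 (0.23 ± 0.04, adjusted p 0.00057). ACK1 WT was lower than ACK1 IDRmut by -0.55 ± 0.04 (95% interval -0.64 to -0.46, adjusted p 4e-08). The order of the arms was thus opposite to that of SOCS2 and of TNK2. These calls held under every alternative tried, as did those of SOCS2.

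The pseudogene SOCS5P4 on chromosome X, which can share reads with SOCS5, had 9 and 13 counts in ACK1 WT, 19 and 20 counts in ACK1 IDRmut, and 7 and 10 counts in Control. Its difference was 1.04 ± 0.38 in ACK1 IDRmut over Control (adjusted p 0.047), a call that was lost under most alternatives, with adjusted p up to 0.37 by DESeq2. In ACK1 WT against ACK1 IDRmut it was -1.18 ± 0.36 (adjusted p 0.021), lost without either library of those arms in turn (adjusted p 0.067 to 0.2). Its counts are small beside the 1336 to 2959 counts of SOCS5. The other pseudogenes, SOCS2P1, SOCS2P2, SOCS5P1, SOCS5P2, SOCS5P3, SOCS5P5 and SOCS6P1, had at most 5 counts in any library.

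SOCS4, the closest relative of SOCS5, did not follow it. It had 55 and 55 CPM in ACK1 WT, 52.8 and 54.1 CPM in ACK1 IDRmut, and 59.3 and 53.2 CPM in Control (chromosome 14, 55027230 to 55049488, plus strand; ENSG00000180008). Both ACK1 arms lay within the span of the Control libraries or just below it. The differences were -0.04 for ACK1 WT over Control (95% interval -0.15 to 0.08), -0.08 for ACK1 IDRmut over Control (-0.20 to 0.04) and 0.04 for ACK1 WT over ACK1 IDRmut (-0.08 to 0.16), none of them called.

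SOCS6, which binds KIT and insulin receptor substrates, fell slightly in both ACK1 arms. It had 43.5 and 46.3 CPM in ACK1 WT, 44.2 and 47.5 CPM in ACK1 IDRmut, and 54.9 and 51.4 CPM in Control (chromosome 18, 70288901 to 70330200, plus strand; ENSG00000170677). Both arms lay below Control without overlap and overlapped each other. The log2 fold change was -0.24 ± 0.06 in ACK1 WT (adjusted p 0.0038) and -0.21 ± 0.06 in ACK1 IDRmut (adjusted p 0.011). Without Control replicate 1 neither passed, at -0.19 (adjusted p 0.078) and -0.17 (adjusted p 0.14), and DESeq2 did not call the second (adjusted p 0.058). The arms differed by -0.03 (95% interval -0.15 to 0.10).

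SOCS7, an adaptor of insulin and growth factor signalling, was close to level across the groups. It had 74.8 and 76.9 CPM in ACK1 WT, 79 and 79.6 CPM in ACK1 IDRmut, and 81.8 and 78.3 CPM in Control (chromosome 17, 38352228 to 38405593, plus strand; ENSG00000274211). ACK1 WT lay slightly below both other groups, which overlapped. The differences were -0.08 in ACK1 WT over Control (95% interval -0.17 to 0.02), -0.01 in ACK1 IDRmut over Control (-0.11 to 0.09) and -0.06 between ACK1 WT and ACK1 IDRmut (-0.16 to 0.03), and none was called.

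The genes whose changes against Control lay nearest to those of each called member were found by Euclidean distance in the 2 log2 fold changes against Control, over genes averaging 1 CPM or more; both fold changes share the Control libraries. For SOCS2 these were EDIL3-DT, CMTM7 and RTN4R, at distances of 0.099, 0.126 and 0.132. CMTM7, a membrane protein gene, stood at 36.6 ± 1.5 CPM in ACK1 WT, 20.9 ± 0.5 CPM in ACK1 IDRmut and 7.47 ± 0.31 CPM in Control (SD, n = 2). SOCS5 was nearest to S100A5, SLC45A1 and EHF (0.025, 0.026 and 0.048). S100A5 and SLC45A1 averaged 1.69 and 1.65 CPM, and their changes in ACK1 WT over Control had SE of 0.30 and 0.28, far above these distances. Neither was called in ACK1 WT over Control or between the ACK1 arms, and their calls in ACK1 IDRmut over Control were lost with DESeq2 (adjusted p 0.24 and 0.26). EHF, an epithelial ETS transcription factor, had 143 ± 2.1 CPM in ACK1 WT, 203 ± 1.8 CPM in ACK1 IDRmut and 118 ± 2.4 CPM in Control (SD, n = 2). SOCS1 was nearest to DACT1, RCAN2 and LINC02593 (0.039, 0.052 and 0.052), and SOCS6 to PEX7, SLC2A1 and HOOK3 (at most 0.005). PEX7 was not called in any comparison.

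Transcripts of the ligase that all SOCS boxes recruit changed little. Of its 7 genes, 1 rose in ACK1 WT over Control, ELOC (elongin C), by 0.20 ± 0.05 (adjusted p 0.0062), and 1 in ACK1 IDRmut over Control, ARIH2, a ubiquitin ligase that works with cullin 5, by 0.12 ± 0.04 (adjusted p 0.029). None fell in either, and ELOC was also higher in ACK1 WT than in ACK1 IDRmut (0.17 ± 0.05, adjusted p 0.026). Neither call is firm: the adjusted p of ELOC over Control was 0.07 without Control replicate 1, 0.1 without ACK1 WT replicate 2 and 0.097 with DESeq2. That of ARIH2 was 0.083 and 0.21 without Control replicate 1 or 2, and 0.17 with DESeq2. The ELOC difference between the ACK1 arms was lost without either ACK1 WT library (adjusted p 0.093 and 0.24), without ACK1 IDRmut replicate 2 (0.068) and with DESeq2 (0.2). CUL5, the cullin itself, had 84.3 CPM in ACK1 WT, 91.9 CPM in ACK1 IDRmut and 89.2 CPM in Control and was not called. Across all genes tested, 35.0%, 31.6% and 26.5% were called in the 3 comparisons.

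Among 29 other genes with a SOCS box, 17 were tested. Of these, 4 rose and 3 fell in ACK1 WT over Control, 4 rose and 2 fell in ACK1 IDRmut over Control, and 5 were higher and 2 lower in ACK1 WT than in ACK1 IDRmut, with medians of -0.03, 0.02 and 0.04. The shares of all genes called in the 3 comparisons were 35.0%, 31.6% and 26.5%. The 6 genes called in ACK1 IDRmut over Control became 3 without Control replicate 1, 1 without Control replicate 2, 3 without either ACK1 IDRmut library and 0 with DESeq2. SPSB1, a substrate receptor that targets inducible nitric oxide synthase, had 11.9 CPM in ACK1 WT, 8.87 CPM in ACK1 IDRmut and 6.95 CPM in Control, and rose in both arms (0.76 ± 0.11, adjusted p 3.1e-05, in ACK1 WT and 0.35 ± 0.12, adjusted p 0.032, in ACK1 IDRmut). The second call was lost without Control replicate 2 (adjusted p 0.26), without ACK1 IDRmut replicate 2 (0.078) and with DESeq2 (0.24). SPSB2 and SPSB4, named after their values were seen, had the same order of groups, at 6.61, 5.15 and 3.41 CPM and at 1.34, 0.545 and 0.182 CPM. Their calls in ACK1 IDRmut over Control (adjusted p 0.013 and 0.035) were lost with DESeq2 (0.11 and 0.2). SPSB2 was not called between the ACK1 arms (adjusted p 0.06). SPSB3, below the filter, did not follow, at 0.332 CPM in ACK1 WT, 0.308 CPM in ACK1 IDRmut and 0.342 CPM in Control. SPSB4 had 4 and 3 counts in the Control libraries, where it did not reach the cut of the filter. WSB2 was 0.31 ± 0.04 higher in ACK1 WT than in Control (adjusted p 1.3e-05), with -0.06 in ACK1 IDRmut over Control. RAB40B, a small GTPase with a SOCS box, was lower in ACK1 WT than in Control (-0.41 ± 0.08, adjusted p 0.00064) and than in ACK1 IDRmut (-0.54 ± 0.08, adjusted p 5.2e-05).

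Of 11 JAK and STAT genes, 9 were tested. In each ACK1 arm over Control 3 were higher and 1 lower, where 35.0% (ACK1 WT) and 31.6% (ACK1 IDRmut) of all genes were called. In ACK1 WT against ACK1 IDRmut 1 was higher and 2 lower, where 26.5% of all genes were called. The medians were 0.02, 0.20 and 0.07, and the 4 calls of ACK1 WT over Control became 2 without ACK1 WT replicate 1 and with DESeq2. STAT2, which acts downstream of type I interferon, had 49.2 and 47.5 CPM in ACK1 WT, 44.8 and 47.1 CPM in ACK1 IDRmut, and 37.2 and 38.2 CPM in Control. Both ACK1 arms lay above Control without overlap, and it rose by 0.36 ± 0.06 in ACK1 WT (adjusted p 8.1e-05) and by 0.29 ± 0.06 in ACK1 IDRmut (adjusted p 0.00098). STAT3, the STAT of gp130 receptors, had 294 and 285 CPM in ACK1 WT, 386 and 395 CPM in ACK1 IDRmut, and 300.5 and 299 CPM in Control. It was thus higher in ACK1 IDRmut than in both other groups, by 0.38 ± 0.04 over Control (adjusted p 3.2e-07), and ACK1 WT was lower than ACK1 IDRmut by -0.43 ± 0.04 (adjusted p 8.9e-08). STAT5A rose by 0.41 ± 0.13 in ACK1 WT (adjusted p 0.022), a call lost without Control replicate 2 (adjusted p 0.23), without ACK1 WT replicate 1 (0.099) and with DESeq2 (0.22). STAT5B, the more abundant of the pair, had 49.8 CPM in ACK1 WT, 52.5 CPM in ACK1 IDRmut and 47.4 CPM in Control and was not called. Its difference in ACK1 IDRmut over Control (0.15, adjusted p 0.058) was called with upper-quartile scaling (0.18, adjusted p 0.024).

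Inhibitors of the pathway outside the SOCS family moved in both directions. Of 11 tested genes, 2 rose and 1 fell in ACK1 WT over Control, none rose and 2 fell in ACK1 IDRmut over Control, and 2 were higher and 1 lower in ACK1 WT than in ACK1 IDRmut, with medians of 0.01, 0 and 0.09. Among all genes, 35.0%, 31.6% and 26.5% were called in the 3 comparisons. The 2 calls of ACK1 IDRmut over Control became 1 without either library of Control or of ACK1 WT and 4 without ACK1 IDRmut replicate 1, and the 3 calls between the ACK1 arms became 6 without that library. SH2B3, the adaptor LNK, rose by 0.49 ± 0.07 in ACK1 WT over Control (adjusted p 1.5e-05) and had 0.03 in ACK1 IDRmut over Control. USP18, which blocks the type I interferon receptor and removes ISG15, rose by 0.74 ± 0.12 in ACK1 WT (adjusted p 0.0001), with 0.21 in ACK1 IDRmut. The arms differed for both, by 0.47 ± 0.06 for SH2B3 (adjusted p 4e-05) and by 0.53 ± 0.11 for USP18 (adjusted p 0.002). PTPN1, a phosphatase of JAK2 and TYK2, fell in both arms, to 151 CPM in ACK1 WT and 169 CPM in ACK1 IDRmut, against 193 CPM in Control.

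Receptors and adaptors that SOCS proteins act on were tested for 20 of 25 listed genes. In ACK1 WT over Control 6 rose and 5 fell, in ACK1 IDRmut over Control 7 rose and 5 fell, and 5 were higher and 3 lower in ACK1 WT than in ACK1 IDRmut, with medians of 0.03, 0.06 and 0.10. Over all genes, 35.0%, 31.6% and 26.5% were called in the 3 comparisons, with a median of 0 in each. With 20 genes these counts are a description. The 11 calls of ACK1 WT over Control became 7 without Control replicate 1, 5 without Control replicate 2 and 7 without ACK1 WT replicate 2 or with DESeq2, and the 12 of ACK1 IDRmut over Control became 7 without Control replicate 2. IL7R, the receptor of IL-7 and a user of STAT5, had 41.6 and 41.2 CPM in ACK1 WT, 28.6 and 29.2 CPM in ACK1 IDRmut, and 12.4 and 11.6 CPM in Control. IL4R, the receptor chain of IL-4 and IL-13, had 4.31 and 4.91 CPM in ACK1 WT, 1.82 and 1.5 CPM in ACK1 IDRmut, and 0.101 and 0.161 CPM in Control. Both rose in each arm over Control and were higher in ACK1 WT than in ACK1 IDRmut, by 0.52 ± 0.06 (adjusted p 4.7e-06) and 1.49 ± 0.18 (adjusted p 1.1e-05), the order of groups that SOCS2 had. IL4R had 88 and 168 counts in ACK1 WT, 37 and 33 counts in ACK1 IDRmut, and 2 and 3 counts in Control. It reached the cut of the filter in its ACK1 libraries alone, so the size of its rise over Control rests on few counts. LIFR, the receptor of LIF, rose by 0.56 ± 0.06 in ACK1 WT (adjusted p 1e-06).

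Few of the ligands were expressed: 8 of 29 were tested, of which 4 rose in ACK1 WT over Control, 2 rose in ACK1 IDRmut over Control and none fell in either, with medians of 0.45 and 0.20; of all genes, 17.4% rose and 17.6% fell in ACK1 WT, and 15.6% rose and 15.9% fell in ACK1 IDRmut. With 8 genes these counts are a description. Between the ACK1 arms 3 were higher and 1 lower in ACK1 WT (median 0.22), where 14.2% of all genes were higher and 12.3% lower. CSF3, a ligand below the filter, had its counts mostly in Control: 15 over both Control libraries, 2 over ACK1 IDRmut and 0 over ACK1 WT. The 2 calls of ACK1 IDRmut over Control became 1 without either Control library and 0 with DESeq2, and the 4 between the arms became 2 without ACK1 WT replicate 2 and with DESeq2. LIF, a gp130 cytokine, had 64.1 CPM in ACK1 WT, 47.2 CPM in ACK1 IDRmut and 45.2 CPM in Control, and IL11 had 7.14, 4.34 and 4.34 CPM in the same order of groups. Both were higher in ACK1 WT than in Control (0.50 ± 0.06, adjusted p 2e-06, for LIF and 0.71 ± 0.13, adjusted p 0.00033, for IL11). CSF2, which reached the cut of the filter in its ACK1 WT libraries alone, had 42 counts over both ACK1 WT libraries, 19 over ACK1 IDRmut and 3 over Control, ratios to Control of 9.82 (95% counting interval 3.14 to 49.5) and 5.73 (1.69 to 30.2). IL6, named after its values were seen, had 1.67 and 0.731 CPM in ACK1 WT, 2.41 and 1.86 CPM in ACK1 IDRmut, and 0.964 and 0.914 CPM in Control, and its rise of 1.17 ± 0.34 in ACK1 IDRmut over Control (adjusted p 0.013) was lost without either Control library (adjusted p 0.08 and 0.088) and with DESeq2 (0.092).

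Other genes known as induced through STATs were called in both directions, as were all genes (35.0%, 31.6% and 26.5% called in the 3 comparisons, split about evenly). Of 15 tested, 4 rose and 5 fell in ACK1 WT over Control, 5 rose and 6 fell in ACK1 IDRmut over Control, and 3 were higher and 5 lower in ACK1 WT than in ACK1 IDRmut, with medians of 0.01, 0.05 and -0.05. CDKN1A, a cyclin-dependent kinase inhibitor, had the order of SOCS2, with 61.3 CPM in ACK1 WT, 40.4 CPM in ACK1 IDRmut and 26.8 CPM in Control. BCL3, a nuclear partner of NF-kappaB, had 25.8 CPM in ACK1 WT, 44.7 CPM in ACK1 IDRmut and 51.8 CPM in Control, and fell by 1.00 on the log2 scale in ACK1 WT (adjusted p 3.1e-10). CEBPD, a target of STAT3 named after its values were seen, had 9.5 and 10.7 CPM in ACK1 WT, 20.5 and 17.2 CPM in ACK1 IDRmut, and 9.33 and 8.17 CPM in Control. It rose by 1.10 ± 0.11 in ACK1 IDRmut over Control (adjusted p 8.2e-07) and was called lower in ACK1 WT than in ACK1 IDRmut (-0.88 ± 0.10, adjusted p 5e-06), so that, like SOCS5 and STAT3, it was highest in ACK1 IDRmut. MYC, a growth regulator, was also highest there, at 156 and 145 CPM, against 96.8 and 101 CPM in ACK1 WT and 107 and 104 CPM in Control.

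**Figure D4:**
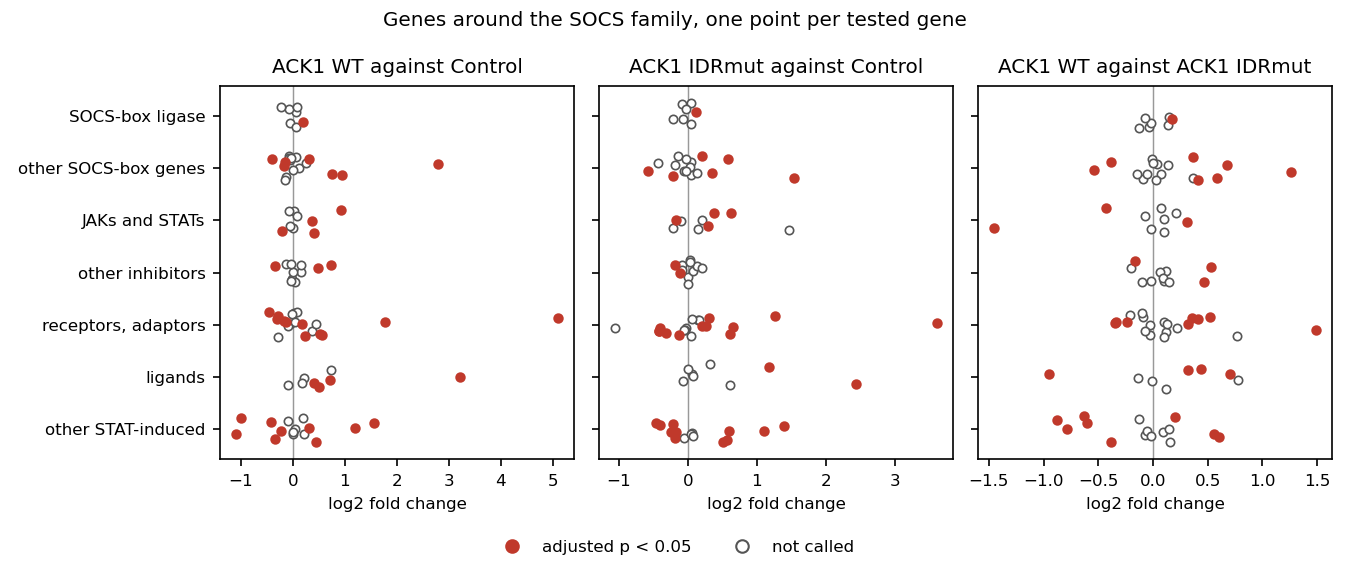
Log2 fold change (x axis, a separate scale in each panel) of each tested gene in 7 lists around the SOCS family, 1 point per gene, with red points at an adjusted p under 0.05. Called genes lie on both sides of 0 in most lists. IL4R, with 2 and 3 counts in the Control libraries, is the farthest to the right in all 3 panels.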

How the data were processed

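Polyadenylated RNA of 6 H2170 libraries was sequenced, per the labels' protocols. The deposited table holds raw counts per gene, not normalized by the authors; HISAT2 2.2.1, SAMtools 1.14, featureCounts 2.0.1 and the build GRCh38 are named in the submitters' processing notes. Strandedness, gene annotation and the handling of multi-mapped reads were not given in the sources used here. IDs were matched to symbols by a table of current names, with positions and exon lengths from GENCODE release 29 (GRCh38), which may not be the authors' release.

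Genes were kept by filterByExpr (minimum count 10, minimum total 15), leaving 16591 of 61487, and scaled by TMM. Group means were fitted to the 6 libraries together in edgeR 4.0.16 (R 4.3.3) and tested by its quasi-likelihood test with Benjamini-Hochberg adjustment over all genes tested. The SE is the log2 fold change divided by the root of F, and intervals use the t distribution on 16.5 degrees of freedom. The procedure was tested on simulated counts. The members and the 7 gene lists around them were chosen with earlier results of these data known. Beside the members, named genes are TNK2, STAT5A, STAT5B, other entries named SOCS, up to 3 genes of each list ranked by adjusted p, and the 3 genes nearest to each called member; a named gene and a marker are not reported here. Alternatives were upper-quartile and RLE scaling, DESeq2 1.42.0, no filter, fits of the groups compared, the replicate block and leaving out each library.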

Additional observations from a re-analysis of the deposited data

How the results depend on the processing

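No called log2 fold change of a member reversed. The uncalled change of SOCS1 in ACK1 IDRmut over Control went from 0.41 to -0.01 without Control replicate 1. Over 24 member results and 12 alternatives, 286 values could be had (DESeq2 gave no adjusted p for CISH and SOCS1 between the ACK1 arms); 278 kept their side of the threshold, 6 lost a call (SOCS1 and SOCS6, given above) and 2 gained one: SOCS1 in ACK1 WT against ACK1 IDRmut, given above, and CISH in ACK1 IDRmut against Control with upper-quartile scaling (1.11, adjusted p 0.049). Upper-quartile scaling moved the median of all genes by at most 0.032 on the log2 scale and the RLE size factors by at most 0.001. With upper-quartile scaling 58.6% of the genes called in ACK1 WT against Control and 58.1% of those in ACK1 IDRmut against Control were higher, against 49.8% and 49.5% with TMM. Members called in ACK1 WT against Control numbered 4, and 2 to 4 when 1 library was left out.

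All genes called in ACK1 WT against Control numbered 5807, and 3480 with DESeq2, and their number also varied widely when 1 library was left out. In ACK1 IDRmut against Control they numbered 5237, 3116 with DESeq2 and 3451 to 5522 when 1 library was left out, lowest without Control replicate 1. In ACK1 WT against ACK1 IDRmut they numbered 4396, 2351 with DESeq2 and 2590 to 4761 when 1 library was left out, lowest without ACK1 WT replicate 2. The cause was not tested. The replicate numbers did not pair the samples: deviations of same-numbered libraries correlated at -0.0133, -0.0361 and -0.0554 across genes between the groups, and with the replicate block 5440, 4836 and 3966 genes were called. Depth limits CISH and SOCS1, with 6 to 39 counts per library.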

Other observations

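Type I and type III interferon genes, whose signalling is restrained by SOCS1 and, for type I, by USP18, were below the filter on low counts. IFNB1 had 10 counts over both ACK1 WT libraries, 3 over ACK1 IDRmut and 0 over Control. IFNE had 18, 17 and 7 counts in the same order of groups, and IFNA1, IFNL1 and IFNL2 had at most 2 counts in any group.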
